A study of Mus musculus with 207 samples.

Results

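Macrophages grown from the bone marrow of single mice were compared by how much of the cell division program their RNA carried. A division score was taken for each culture as the mean of the standardised log2 signals of Top2a, Mki67, Cdk1 and Mcm5 within a sex, and was read against a straight line on the rank of the number in the culture's title. Ccnb1 was also meant to be in the score, but no probe set carried that symbol alone in the annotation used here, so the score rests on 4 of 5 genes. The 23 females and 22 males farthest above the line are called strongly dividing, and the 23 females and 22 males farthest below it weakly dividing. Together they are 90 of the 207 arrays of the series, drawn from 93 females and from 90 males, and the 24 males numbered 55 to 78 were not ranked.

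Every mouse was a 16 week old F2 animal from an intercross of the AKR and DBA/2 strains, and the mice of every group were deficient in apolipoprotein E. Adherent marrow cells were grown for 2 weeks in medium with 10% serum and 20% L-cell conditioned medium, a source of macrophage colony-stimulating factor (M-CSF), and total RNA of each mouse was hybridized to an Affymetrix mouse 430v2 array. The groups are therefore sets of single cultures from genetically different mice, made by measured values and not by a treatment. The labels do not say what the title number stands for.

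A cell that divides passes through G1, copies its DNA in S phase and separates the copies in mitosis, and cyclins bound to cyclin-dependent kinases (CDKs) drive each step. Genes of S phase are switched on largely by E2F factors. Genes of mitosis come later, when the complexes that hold their promoters silent in resting cells give way to activators. Bone marrow macrophages divide in answer to M-CSF, which acts through the receptor Csf1r. In RNA from a whole culture, a smaller share of dividing cells and less RNA of a gene per dividing cell cannot be told apart.

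The values that chose the groups are given as a description only, as MAS5 signals on a linear scale. Top2a, a topoisomerase that untangles DNA in mitosis, ran from 235 to 3749.6 with a median of 571 in strong females and from 102.9 to 599 with a median of 224 in weak ones. In males it ran from 205 to 3334 with a median of 1539 in strong males and from 103.7 to 1075 with a median of 251 in weak ones. Mki67, the gene of the division marker Ki-67, had medians of 1428 and 819 in strong and weak females and of 2709 and 836 in males. The strong groups had the higher median in all 4 score genes, and the groups overlapped in each. Cdk1, the kinase of mitosis, had medians of 999 and 544 in females and of 1939 and 594 in males, and Mcm5, a subunit of the replicative helicase, of 683 and 281 and of 1743 and 465. The last female taken as strongly dividing lay 0.386 above the line and the first one left out 0.375. The last weak female lay at -0.333 and the first left out at -0.315. In males these values were 0.415 and 0.368 above the line, and -0.399 and -0.398 on the other side.

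**Figure D1:**
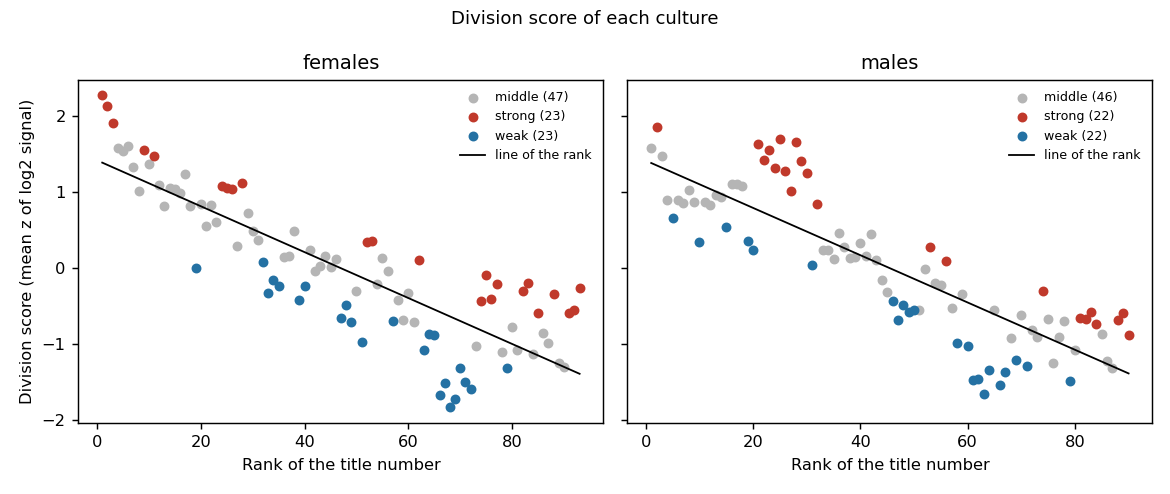
Division score (mean of standardised log2 signals) of each ranked culture against the rank of its title number, for females and males. Red points are the strongly dividing (23 and 22), blue points the weakly dividing (23 and 22) and grey points the other cultures, and the black line is the line of the rank. Red and blue points stand in runs along the rank.

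The score fell along the title numbers, and the line of the rank held 72.4% of its variance in females and 73.3% in males. Strong and weak are therefore relative to that straight line: 11 of 23 strong females and 8 of 22 strong males had a score below the mean of their sex, and 1 weak female and 6 weak males had one above it. The line leaves curvature, so a culture above it need not be above cultures of like number. With residuals on a spline of the rank 17 of 23 strong and 17 of 23 weak females kept their group. In males 13 of 22 strong and 16 of 22 weak cultures did. Within 4 blocks of title numbers 17 strong and 14 weak females and 16 strong and 14 weak males did. The groups also stood in runs. Next to a culture of their own group in rank stood 17 of 23 strong and 19 of 23 weak females, and 17 of 22 strong and 14 of 22 weak males. Among the ranked males number 79 follows number 54, and both were weak. The longest runs were 10 weak females from number 96 on and 10 strong males from number 29 on. What neighbours in number share is not given in the sources used here, so within a run a shared preparation and the division group cannot be told apart. The results were therefore also computed in a pair of further ways, both chosen after the data were seen. One took the score against the 10 cultures nearest in number and fitted blocks of consecutive cultures, and the other left out the longest run of each sex.

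Over the ranked arrays the median signal of an array ran from 51.1 to 112.4. Of 5 measures of array quality and position tested in each sex, the ratio of 3' to 5' signal of beta-actin, which rises as RNA breaks down, differed between the female groups, at 1.24 ± 0.0432 (SD, n = 23) in strong and 1.32 ± 0.110 (SD, n = 23) in weak cultures (2-sided permutation test, Benjamini-Hochberg adjusted p = 0.0263 over 10 tests). The other 9 tests gave adjusted p from 0.384 to 0.87. The part of this ratio in the results was not tested beyond a fit that holds it, the same ratio of Gapdh and the array median as covariates. Of the 19821 probe sets compared below, that fit called 1556 in females and 578 in males. The main fit called 3720 and 616. The gene lists were not counted under the fit with these covariates. The defining macrophage genes were bright in every culture compared, with lowest signals of 21714 for the M-CSF receptor Csf1r and 12878 for the surface marker Adgre1 (F4/80).

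In each sex the groups were compared with limma on log2(signal + 1), with a smooth curve of the rank as covariate, over 19821 probe sets. Differences are strong minus weak on the log2 scale after that curve and are given with their standard error, while signals are as deposited. At a Benjamini-Hochberg adjusted p under 0.05, 3720 probe sets (18.8%) were called in females, 616 (3.11%) in males and 376 (1.90%) in both in the same direction. With 1 probe set kept for a gene, 1154 of 10123 genes (11.4%) were called higher and 870 (8.59%) lower in strongly dividing females, and 263 (2.60%) higher and 96 (0.948%) lower in males. In both sexes 187 genes (1.85%) were higher and 40 (0.395%) lower. Those 227 genes were 63.2% of the male calls and 11.2% of the female calls. Over all genes the female and male differences had a Pearson correlation of 0.63 and a Spearman correlation of 0.54, as a description across genes, which are not independent and were read on the same kind of array. The median difference over all genes was 0.002 in females and -0.004 in males. Since the cultures were chosen by division genes, a p-value here describes how another gene moved with the score, not what an applied treatment did. The fits take the cultures as independent although the groups stood in runs, so the p-values can be too small.

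**Figure D2:**
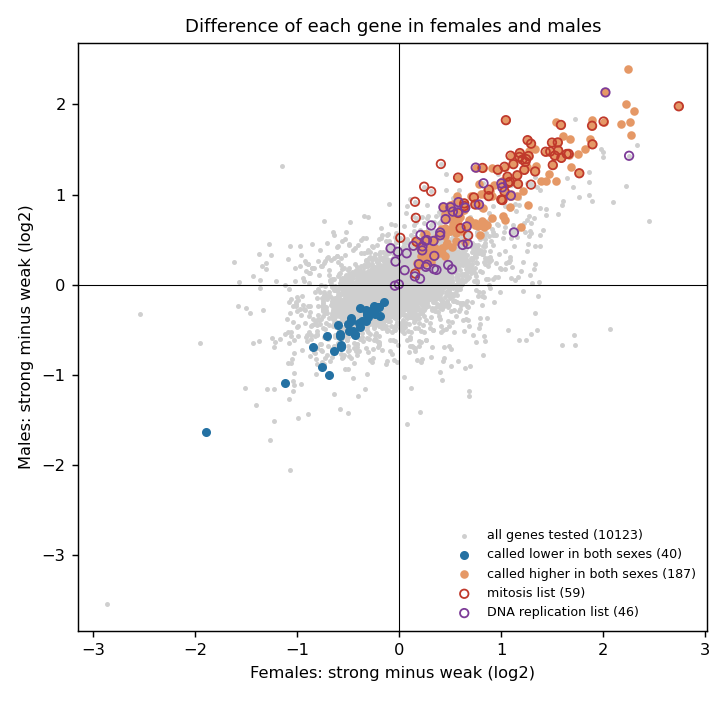
Difference of each gene between strongly and weakly dividing cultures (log2, strong minus weak) in females (x axis) and males (y axis), after the curve of the rank, for all 10123 genes tested (grey), the 187 called higher (orange) and the 40 called lower (blue) in both sexes, with the mitosis (59 genes) and DNA replication (46 genes) lists circled. All 59 mitosis genes lie above 0 on both axes.

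Nearly every measured gene of mitosis was higher in the strongly dividing cultures. Of the 59 genes of a mitosis list that passed the filter on low signals, 52 were called higher in females and 56 in males, 50 in both, and none lower. Among all genes 11.4%, 2.60% and 1.85% were called higher in females, in males and in both. The median difference of the list was 1.12 and 1.27 in females and males, and all 59 genes lay above 0 in both sexes, as against 50.4% of all genes in females and 48.7% in males. The list is close in function to the score genes. Those not called in males were Bub3, Espl1 and Kif4, at 0.12, 0.55 and 1.11, and the 7 not called in females lay between 0.013 and 0.41. With the score taken against the nearest cultures 55 were called in females (16.0% of all genes) and 50 in males (4.75%), and without the longest run 52 (8.39%) and 35 (1.12%).

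Ube2c, the ubiquitin-conjugating enzyme with which the anaphase-promoting complex marks cyclins for destruction, ran from 122.6 to 3621 with a median of 596 in strong females and from 2.4 to 487 with a median of 188 in weak ones. In males it ran from 187 to 3710 with a median of 1671 and from 7.3 to 1604 with a median of 161. Strong cultures were mostly the higher, and the groups overlapped in both sexes: a strong female was above a weak one in 87.5% of pairs and a strong male in 86.2%. The difference was 2.74 ± 0.46 (adjusted p = 7.57e-05) in females and 1.98 ± 0.31 (adjusted p = 2.27e-05) in males. Ccnb2, a cyclin that brings CDK1 into mitosis, ran from 129.5 to 1679 with a median of 427 in strong females and from 8.5 to 397 with a median of 170.5 in weak ones. Its male signal ran from 154 to 2902 with a median of 1588 and from 2.7 to 1296 with a median of 128. Here too the strong groups were the higher with some overlap, and Ccnb2 differed by 1.89 ± 0.25 (adjusted p = 1.82e-06) and 1.76 ± 0.32 (adjusted p = 0.000361). Without the longest run the male difference of Ccnb2 was 1.71 with an adjusted p of 0.0578, whereas Ube2c stayed called in both further ways in both sexes. Spag5, a protein of the mitotic spindle, differed by 2.01 ± 0.36 and 1.81 ± 0.32 in females and males, and Sgo1, the shugoshin that guards the cohesion of sister chromatids, by 1.90 ± 0.40 and 1.56 ± 0.34. The weak groups had low median signals for both, of 32.6 and 34.9 for Spag5 and of 21.5 and 12.6 for Sgo1 in females and males, under the 100 on which the filter on low signals was set. The male call of Sgo1 was lost without the longest run, at 1.56 (adjusted p = 0.0662).

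**Figure D3:**
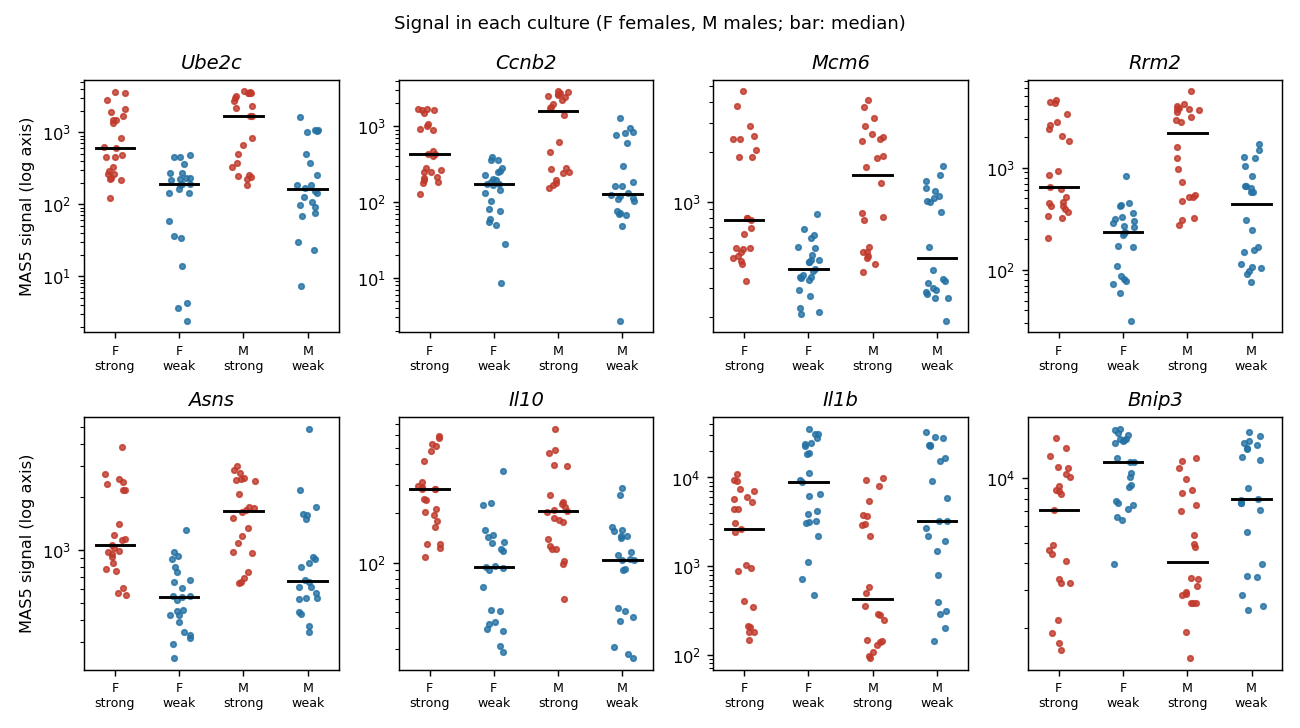
MAS5 signal (log axis) of 8 genes in each of the 90 cultures, strongly and weakly dividing, females and males, with the median of each group as a bar. Ube2c, Ccnb2, Mcm6, Rrm2, Asns and Il10 have the higher median in the strong group of both sexes and Il1b and Bnip3 the lower one, and the groups overlap in all 8 genes.

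The DNA replication list had a smaller median difference than the mitosis list. Of its 46 measured members, 30 were called higher in females and 26 in males, 20 in both, and none lower, beside 11.4%, 2.60% and 1.85% of all genes called higher. The list had medians of 0.39 and 0.49. Below 0 lay 5 of its members among females and 1 among males. Mcm6, a subunit of the MCM helicase that opens DNA for copying, ran from 334 to 4640 with a median of 771 in strong females and from 211 to 842 with a median of 393 in weak ones. Male signals ran from 378 to 4113 with a median of 1458 and from 191 to 1650 with a median of 459.5. The groups overlapped, and strong cultures were above weak ones in 84.7% and 77.1% of pairs. The difference of Mcm6 was 1.10 ± 0.14 (adjusted p = 7.19e-07) in females and 0.99 ± 0.16 (adjusted p = 8.67e-05) in males. Uhrf1, which brings the DNA methylase Dnmt1 to copied DNA, differed by 2.02 ± 0.33 and 2.13 ± 0.46. Clspn, a checkpoint protein of the replication fork, differed by 1.01 ± 0.16 and 1.08 ± 0.15, and Dtl, which targets the licensing factor Cdt1 for destruction, by 1.004 ± 0.33 and 1.12 ± 0.26. Uhrf1 and Dtl had median signals under 100, the level of the filter on low signals, in the weak groups of both sexes. Without the longest run 33 replication genes were called higher in females (8.39% of all genes) and 9 in males (1.12%), Dtl no longer among them in males, at 1.09 (adjusted p = 0.119).

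Of 24 genes of nucleotide synthesis, 7 were called higher in females and 6 in males, and Rrm2, Tk1, Dut and Rrm1 in both. The shares of all genes called higher were 11.4% in females, 2.60% in males and 1.85% in both. Rrm2, the cell cycle regulated subunit of ribonucleotide reductase, which makes the building blocks of DNA, ran from 206 to 4570 with a median of 654 in strong females and from 31.6 to 831 with a median of 234 in weak ones. Its male signal ran from 274 to 5607 with a median of 2202 and from 76.7 to 1712 with a median of 443. The strong groups were the higher with some overlap. Rrm2 differed by 2.17 ± 0.24 (adjusted p = 3.24e-08) in females and 1.78 ± 0.21 (adjusted p = 7.34e-08) in males, and it was called in both further ways in both sexes. The thymidine kinase Tk1 differed by 2.27 ± 0.42 and 1.66 ± 0.30, the dUTPase Dut by 0.77 ± 0.12 and 0.65 ± 0.16 and Rrm1, the partner subunit of Rrm2, by 0.45 ± 0.09 and 0.78 ± 0.09. The male call of Dut was lost against the nearest cultures, at 0.41 (adjusted p = 0.14), and without the longest run, at 0.55 (adjusted p = 0.18). The medians of the list were 0.18 and 0.22, and Paics, a purine enzyme, was called lower in females at -0.27 ± 0.07 (adjusted p = 0.00912), a call lost in both further ways.

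Promoters of 5 of these genes, picked by hand among those called higher in both sexes, are printed to show where short motifs lie. The sequence played no part in choosing the groups. Each stretch holds 250 bases before and 50 after the start of the gene in RefSeq (GRCm38.p6), read 5' to 3' on the strand of the gene. Capitals mark 3 motifs on either strand. The first is TTTGAA, the core of the cell cycle genes homology region known from promoters of mitosis genes, and the second CCAAT, the box bound by NF-Y. The third is an E2F site core, here TTGGCGC or with the letters TTCCCGC or with TTGCCGC or else TTCGCGC. Neighbouring matches can overlap and then form 1 run of capitals. Ccnb2 lies at chr9:70421505-70421804 (minus strand), Ube2c at chr2:164769679-164769978 (plus), Rrm2 at chr12:24708004-24708303 (plus), Mcm6 at chr1:128359656-128359955 (minus) and Clspn at chr4:126556730-126557029 (plus).
Ccnb2: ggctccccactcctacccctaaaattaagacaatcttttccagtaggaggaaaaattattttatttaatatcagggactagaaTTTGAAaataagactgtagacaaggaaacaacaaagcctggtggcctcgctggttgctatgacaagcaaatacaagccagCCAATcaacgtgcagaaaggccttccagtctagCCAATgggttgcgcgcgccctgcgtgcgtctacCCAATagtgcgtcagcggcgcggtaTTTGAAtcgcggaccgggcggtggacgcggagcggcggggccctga
Ube2c: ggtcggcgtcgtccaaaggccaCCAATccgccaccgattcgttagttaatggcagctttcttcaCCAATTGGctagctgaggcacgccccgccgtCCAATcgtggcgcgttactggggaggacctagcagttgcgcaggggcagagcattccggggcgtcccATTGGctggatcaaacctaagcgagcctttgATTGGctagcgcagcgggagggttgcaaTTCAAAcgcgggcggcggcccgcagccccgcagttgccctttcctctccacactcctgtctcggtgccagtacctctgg
Rrm2: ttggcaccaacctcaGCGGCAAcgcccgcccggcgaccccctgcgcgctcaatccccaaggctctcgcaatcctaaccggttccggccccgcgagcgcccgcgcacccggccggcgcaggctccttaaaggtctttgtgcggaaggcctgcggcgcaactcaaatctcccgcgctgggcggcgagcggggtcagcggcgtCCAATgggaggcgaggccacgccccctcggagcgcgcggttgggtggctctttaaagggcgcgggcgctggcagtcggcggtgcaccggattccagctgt
Mcm6: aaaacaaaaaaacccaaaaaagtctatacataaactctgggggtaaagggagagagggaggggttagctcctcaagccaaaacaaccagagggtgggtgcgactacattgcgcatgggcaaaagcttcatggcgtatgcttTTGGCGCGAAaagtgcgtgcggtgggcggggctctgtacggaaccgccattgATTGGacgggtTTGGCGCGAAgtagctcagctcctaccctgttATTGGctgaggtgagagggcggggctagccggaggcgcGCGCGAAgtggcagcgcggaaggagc
Clspn: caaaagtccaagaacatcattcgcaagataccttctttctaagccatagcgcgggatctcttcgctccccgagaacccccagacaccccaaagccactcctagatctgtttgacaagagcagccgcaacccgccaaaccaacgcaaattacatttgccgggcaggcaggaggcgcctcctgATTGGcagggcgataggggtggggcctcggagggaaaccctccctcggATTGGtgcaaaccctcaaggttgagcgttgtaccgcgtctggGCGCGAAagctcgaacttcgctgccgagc

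The promoters of the mitosis genes Ccnb2 and Ube2c held TTTGAA 2 times and 1 time and CCAAT 3 and 6 times, with no E2F core. The S phase genes held no TTTGAA but an E2F core, 1 in Rrm2, 5 in Mcm6 and 1 in Clspn, and 1, 2 and 2 copies of CCAAT. Overlapping matches on opposite strands, as in Mcm6, were counted apart. Of 8304 tested genes with a promoter in the table, 11.4% held TTTGAA, 38.6% CCAAT, 17.6% an E2F core and 4.65% both TTTGAA and CCAAT. Of 155 genes called higher in both sexes with a promoter there, 34.8% held TTTGAA, 55.5% CCAAT, 35.5% an E2F core and 27.1% both TTTGAA and CCAAT. Among 42 such genes of the mitosis list 73.8% held TTTGAA and 14.3% an E2F core, and among 16 of the replication list 18.8% held TTTGAA and 56.2% an E2F core. Of 36 genes called lower in both sexes with a promoter there, 2 held TTTGAA and 7 an E2F core. These shares describe letters in a window and were not tested.

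Of the genes that carry a cell from G1 into S phase, 25 were measured. In each sex 6 of them were called higher and none lower, beside 11.4% of all genes called higher in females and 2.60% in males. The medians of the list were 0.17 and 0.21. The 3 called in both were E2f8, a repressor of the E2F family (1.10 ± 0.16 and 1.005 ± 0.13), Ccne2, a cyclin of the entry into S phase (1.02 ± 0.16 and 1.06 ± 0.16), and Rbl1, a pocket protein of the retinoblastoma family (0.26 ± 0.08 and 0.41 ± 0.09). In both sexes the weak groups of E2f8 and Ccne2 had median signals under 100, the level of the filter on low signals. The male call of Rbl1 was lost against the nearest cultures, at 0.22 (adjusted p = 0.0839), and without the longest run, at 0.21 (adjusted p = 0.287). Ccnd1, the cyclin that growth factors induce, ran from 774 to 5940 with a median of 1279 in strong females and from 212 to 1687 with a median of 682 in weak ones. Its male signals ran from 389.6 to 4653 with a median of 2201 and from 234 to 2976 with a median of 826. The strong groups had the higher median in both sexes, with wide overlap in males. Its difference was 0.95 ± 0.16 (adjusted p = 0.000134) in females and 0.55 ± 0.20 (adjusted p = 0.147) in males, and with the score against the nearest cultures it was called in males too, at 0.85 (adjusted p = 0.000225), but not without the longest run, at 0.45 (adjusted p = 0.434). Myc, a transcription factor of growth, had 1.15 ± 0.21 (adjusted p = 0.00032) in females and 0.82 ± 0.31 (adjusted p = 0.156) in males, and 0.95 in males against the nearest cultures (adjusted p = 0.034). Myc had 0.94 (adjusted p = 0.28) in males without the longest run. Of the CDKs of this step, Cdk4 had 0.07 ± 0.07 and 0.12 ± 0.07 and Cdk2 -0.07 ± 0.07 and 0.12 ± 0.09 in females and males, and neither was called.

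Of 30 measured CDK inhibitors and genes of growth arrest, 4 were called higher and 6 lower in females, where 11.4% of all genes were called higher and 8.59% lower. Limma called none in males, where 2 higher and 5 lower had an unadjusted p under 0.05. Among all genes 8.63% were higher and 8.30% lower in males at that level. The medians were -0.14 and -0.08. The inhibitor Cdkn1a (p21) had -0.15 ± 0.10 and -0.08 ± 0.11 and Cdkn1b (p27) -0.11 ± 0.11 and 0.09 ± 0.14, and neither was called in a sex. Those lower in females were Ddit4, an inhibitor of mTOR signalling (-1.06 ± 0.30, adjusted p = 0.0121), the Myc antagonists Mxi1 (-0.69 ± 0.18) and Mxd1 (-0.39 ± 0.09), the cyclin-like Ccng2 (-0.63 ± 0.17), the antiproliferative gene Btg1 (-0.50 ± 0.14) and Txnip, an inhibitor of glucose uptake (-0.48 ± 0.13). In males the same genes had -0.57, -0.54, -0.16, -0.38, -0.40 and -0.28. Those higher in females were the CDK inhibitor Cdkn1c (p57, 1.71 ± 0.52), Sesn1 (0.64 ± 0.17), Klf6 (0.31 ± 0.09) and Ccng1 (0.25 ± 0.08). Some of these female calls were lost in a further way. Without the longest run they were Sesn1, at 0.18 (adjusted p = 0.366), Ccng1, at 0.21 (adjusted p = 0.0861), Ccng2, at -0.48 (adjusted p = 0.072), and Txnip, at -0.18 (adjusted p = 0.134), and against the nearest cultures Mxd1, at -0.19 (adjusted p = 0.129). Cdkn1c had -0.56 ± 0.42 in males, and the test of the difference between the sexes did not call it (adjusted p = 0.215). Its weak groups had median signals under 100 in both sexes, the level of the filter on low signals.

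Some genes of repair and of chromatin were called higher, beside 11.4% of all genes in females and 2.60% in males. For chromatin the female count was near that share. Of 22 repair and checkpoint genes 7 were called higher in each sex. Among those called in both were the recombination motor Rad54l (1.08 ± 0.16 and 1.16 ± 0.29), Brca1 (0.64 ± 0.14 and 0.83 ± 0.16) and the histone variant gene H2ax (0.49 ± 0.11 and 0.59 ± 0.08). Of 19 chromatin genes 3 were called higher in females and 7 in males, and Lmnb1 (lamin B1, 0.57 ± 0.17 and 0.98 ± 0.13), the histone chaperone Asf1b (0.59 ± 0.11 and 0.93 ± 0.11) and Hmgb3 (0.50 ± 0.15 and 0.88 ± 0.16) in both. Of 31 genes of ribosome biogenesis 2 in females and 1 in males were called higher, beside the same 11.4% and 2.60%, and 1 in females lower (8.59% of all genes). Wdr12, a factor of the large ribosomal subunit, was the 1 called in both (0.36 ± 0.11 and 0.34 ± 0.07). Of 26 cytosolic ribosomal protein genes 6 were called lower in females (8.59% of all genes). Limma called none in males, where 0 had an unadjusted p under 0.05, beside 8.63% of all genes higher and 8.30% lower at that level. The female median of that list was -0.19 and became 0.03 without the longest run. With that run left out the male calls of Rad54l (1.16, adjusted p = 0.112), Brca1 (0.58, adjusted p = 0.119), Hmgb3 (0.55, adjusted p = 0.123) and Wdr12 (0.33, adjusted p = 0.0869) were lost, as were the female calls of Lmnb1 (0.56, adjusted p = 0.0556) and Hmgb3 (0.48, adjusted p = 0.0716).

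**Figure D4:**
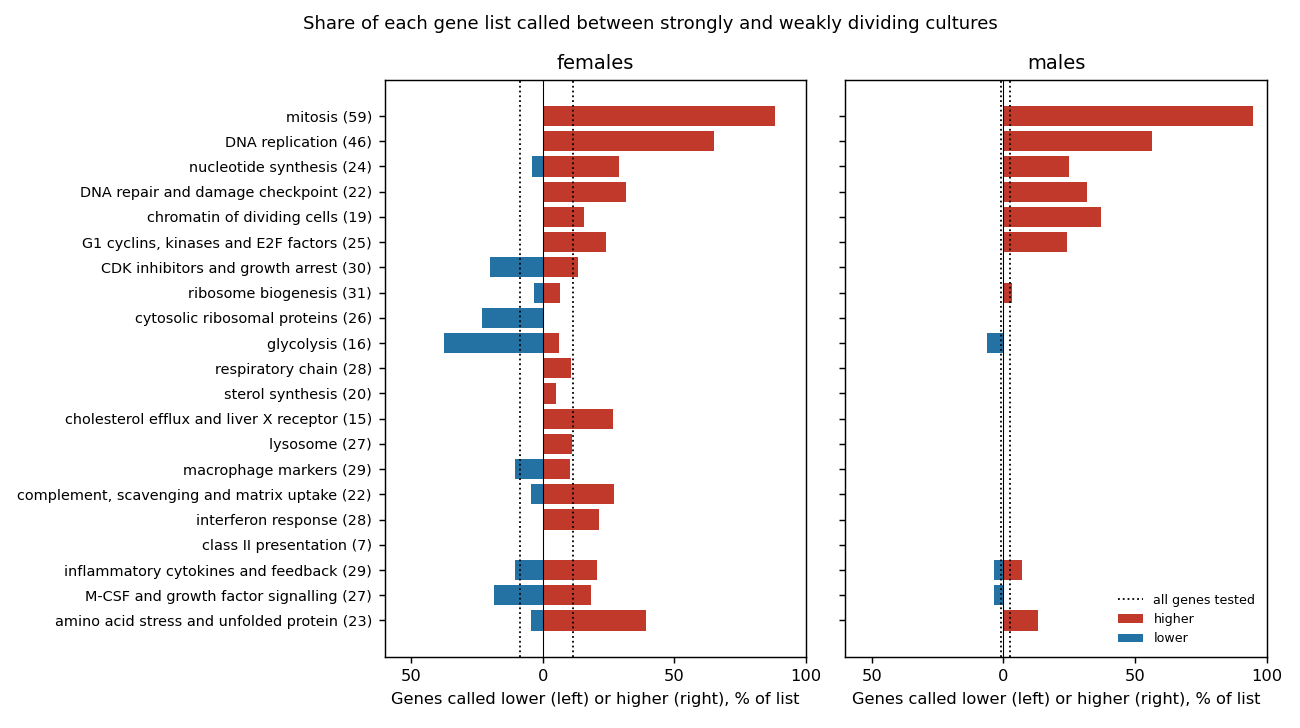
Share (% of the list) of the measured genes of each list called higher (red, right) or lower (blue, left) in strongly dividing cultures of females and males, with the number of measured genes in brackets. Dotted lines give the share over all genes tested (11.4% higher and 8.59% lower in females, 2.60% and 0.948% in males), and mitosis and DNA replication have the longest red bars in both sexes.

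Outside the lists 98 genes were called higher in both sexes. The 10 with the largest mean difference were Pbk, Lrr1, Rcan2, Pclaf, Pimreg, Tmtc4, Shcbp1, Asb2, Pkmyt1 and Kntc1. Pbk, a kinase of mitotic cells, ran from 92.4 to 2387 with a median of 380 in strong females and from 5.9 to 418 with a median of 110.6 in weak ones. The male signals of Pbk ran from 131 to 2393 with a median of 884 and from 19 to 639.7 with a median of 159. Strong cultures were above weak ones in 91.9% and 84.1% of pairs, with some overlap. Pbk differed by 2.31 ± 0.29 (adjusted p = 7.19e-07) in females and 1.93 ± 0.24 (adjusted p = 2.74e-07) in males. Pclaf, which binds the replication clamp PCNA, differed by 1.87 ± 0.21 and 1.61 ± 0.19, Pkmyt1, a kinase that holds back CDK1, by 1.75 ± 0.39 and 1.45 ± 0.33, and Kntc1, a kinetochore protein of the spindle checkpoint, by 1.67 ± 0.33 and 1.44 ± 0.28. Tmtc4, a protein of the endoplasmic reticulum, had a median signal of 3402 in strong and 735 in weak females and of 2840 and 756 in males. It differed by 1.83 ± 0.26 and 1.5 ± 0.39, and strong cultures were above weak ones in 96.4% of female pairs. Asb2, the substrate subunit of a ubiquitin ligase, differed by 1.61 ± 0.24 and 1.65 ± 0.45, and Rcan2, a regulator of calcineurin, by 1.90 ± 0.42 and 1.83 ± 0.54. The weak groups of both sexes had median signals under 100 for Lrr1, Rcan2, Pimreg, Shcbp1, Pkmyt1 and Kntc1. That is the level of the filter on low signals. Male calls lost with the longest run left out were those of Pimreg (1.71, adjusted p = 0.0991), Shcbp1 (1.54, adjusted p = 0.0586), Asb2 (2.004, adjusted p = 0.0807), Rcan2 (2.41, adjusted p = 0.0741), Pkmyt1 (1.48, adjusted p = 0.102) and Kntc1 (1.36, adjusted p = 0.0557), and against the nearest cultures those of Rcan2 (1.62, adjusted p = 0.0572) and Pkmyt1 (1.15, adjusted p = 0.0529).

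Of all 10123 genes 1 had groups that did not overlap in females (0.00988%) and none did in males, and it was singled out after its values were seen. Ap1s2, a subunit of the AP-1 clathrin adaptor, ran from 4312 to 9779 in strong and from 958 to 4162 in weak females. In males Ap1s2 ran from 2375 to 10491 and from 1439.9 to 5996, so the male groups overlapped. Its differences were 1.02 ± 0.15 (adjusted p = 1.87e-05) in females and 0.51 ± 0.21 (adjusted p = 0.198) in males.

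Genes lower in the strongly dividing cultures had smaller differences. The 40 called lower in both sexes had median differences of -0.38 in females and -0.40 in males, as against 0.81 and 0.89 for the 187 called higher, values that describe genes picked by their calls. With the score against the nearest cultures 414 genes (4.09%) were called higher in both sexes, 146 of the 187 among them, and 228 (2.25%) lower, 24 of the 40 among them. Without the longest run 89 (0.879%) were higher, 84 of the 187 among them, and 3 (0.0296%) lower, 2 of the 40 among them. Among 224 differences of the genes named here 16 lost their call against the nearest cultures and 45 without the longest run. The 224 also hold differences that were not called at first and so had no call to lose. Outside the lists the 10 with the largest mean fall were Acpp, Ak4, Fam162a, Fosl2, Il13ra1, Kdm7a, Fzd1, Eno2, Bnip3 and Smim3. Bnip3, a receptor for the removal of mitochondria that low oxygen induces, ran from 1578 to 15450 with a median of 7132 in strong females and from 3959 to 17030 with a median of 11880 in weak ones. In males it ran from 1445 to 12380 with a median of 4078 and from 2426 to 16420 with a median of 7970. Weak cultures had the higher median with wide overlap, and a strong one was above a weak one in 23.4% of female and 27.5% of male pairs. Bnip3 differed by -0.58 ± 0.18 (adjusted p = 0.0212) in females and -0.57 ± 0.13 (adjusted p = 0.00866) in males, and without the longest run by -0.60 (adjusted p = 0.0534) and -0.66 (adjusted p = 0.0303). Ak4, a mitochondrial adenylate kinase, gave -0.69 ± 0.23 and -1.004 ± 0.18, Eno2, an enolase of glycolysis, -0.57 ± 0.18 and -0.67 ± 0.18, and Fosl2, a member of the AP-1 transcription factors, -0.84 ± 0.22 and -0.69 ± 0.16. The interleukin-13 receptor chain Il13ra1 gave -0.64 ± 0.18 and -0.73 ± 0.15. With the longest run left out Ak4 was not called in females (-0.66, adjusted p = 0.12), Eno2 in neither sex (-0.46 and -0.86, adjusted p = 0.147 and 0.0576) and Il13ra1 not in males (-0.73, adjusted p = 0.0662), while Fosl2 stayed called in both. Arg1, the arginase of alternatively activated macrophages, was picked after its values were seen as the gene with the lowest mean difference of all, at -2.86 ± 1.32 (adjusted p = 0.116) in females and -3.54 ± 1.10 (adjusted p = 0.0668) in males, and was called in neither sex.

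Of 16 measured genes of glycolysis 15 had a difference below 0 in each sex, with medians of -0.21 and -0.17. Called lower were 6 in females (8.59% of all genes) and 1 in males (0.948%), Aldoc at -0.71 ± 0.18 (adjusted p = 0.0186). In females 1 was called higher (11.4% of all genes), the hexokinase Hk3 at 0.69 ± 0.11 (adjusted p = 4.92e-05). The brightest member, Aldoa, was called in neither sex (-0.17 ± 0.07 and -0.13 ± 0.05). With the score against the nearest cultures 12 were called lower in females (13.2% of all genes) and 4 in males (3.06%), and without the longest run 3 in females (5.76%) and 0 in males (0.296%).

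Of 23 measured genes of amino acid stress and the unfolded protein response 9 were called higher in females and 3 in males, and Slc7a5, Psat1 and Asns in both. Called higher among all genes were 11.4% in females, 2.60% in males and 1.85% in both. Asns, which makes asparagine, ran from 552 to 3867 with a median of 1069 in strong females and from 241 to 1305 with a median of 539.9 in weak ones. Among males Asns ran from 646 to 3025 with a median of 1671 and from 341 to 4927 with a median of 666. The strong groups had the higher median, and the highest signal of all was in a weak male. Asns differed by 1.04 ± 0.21 (adjusted p = 0.000872) in females and 0.71 ± 0.20 (adjusted p = 0.0354) in males. Slc7a5, a transporter of large neutral amino acids, differed by 2.24 ± 0.48 and 2.39 ± 0.52. Its median signal was 165 in strong and 17.7 in weak females and 218 and 22.9 in males, and those of the weak groups lie under the 100 on which the filter on low signals was set. Psat1, an enzyme of serine synthesis, differed by 1.27 ± 0.24 and 0.88 ± 0.25. The male differences became 1.07, 0.47 and 0.36 for Slc7a5, Psat1 and Asns against the nearest cultures (adjusted p = 0.252, 0.205 and 0.314). Without the longest run they were 2.17, 0.54 and 0.59 (adjusted p = 0.11, 0.398 and 0.249), so no male call of the 3 held in either further way. Xbp1, a transcription factor of the unfolded protein response, was called lower in females at -0.21 ± 0.06 (adjusted p = 0.00997).

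Of 28 measured interferon-stimulated genes 27 in females and 28 in males had a difference above 0, with medians of 0.49 and 0.48, and 6 were called higher in females (11.4% of all genes). Limma called none in males, where 7 were higher at an unadjusted p under 0.05, as were 8.63% of all genes. Bst2 (tetherin), the brightest of the list, had 0.24 ± 0.16 (adjusted p = 0.278) in females and 0.41 ± 0.17 (adjusted p = 0.201) in males. Against the nearest cultures the female count of higher calls was 23 and the male one 5, beside 16.0% and 4.75% of all genes, and without the longest run 5 in females and 0 in males (8.39% and 1.12%). The medians were 0.72 and 0.85 in females and males among the higher title numbers and 0.25 and 0.28 among the lower ones, a difference that was not tested.

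**Figure D5:**
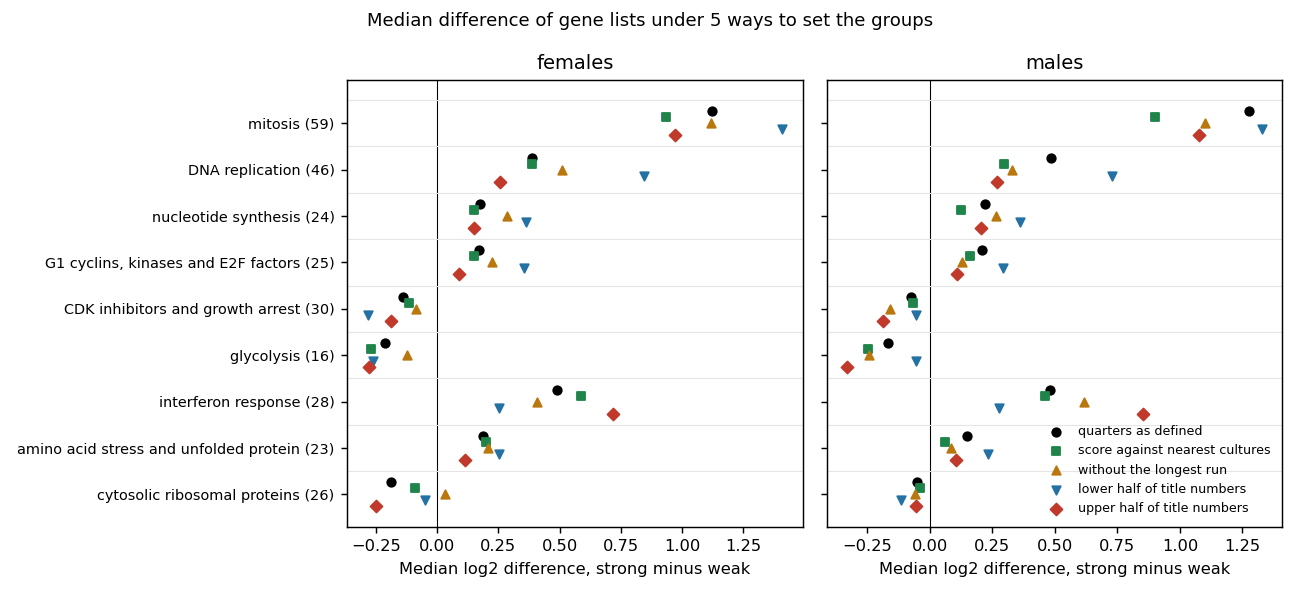
Median log2 difference (strong minus weak) of gene lists in females and males under 5 ways to set the groups: the groups as defined, the score against the nearest cultures, without the longest run of consecutive cultures, and the lower or upper part of the title numbers alone. Mitosis lies between 0.90 and 1.41 in all of them, and the ribosomal protein median of females lies on both sides of 0.

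Within each part of the title numbers the division genes moved the same way. The parts keep the groups set by the division score, so this describes the groups and is not a separate test. In the lower part, with 9 strong and 7 weak females and 12 strong and 6 weak males, the mitosis median was 1.41 in females and 1.33 in males, and 48 and 51 genes were called higher (2.72% and 1.52% of all genes). In the upper part, with 14 strong and 16 weak females and 10 strong and 16 weak males, the medians were 0.97 and 1.08, and 40 and 24 were called (8.72% and 2.67%). DNA replication had medians of 0.84 and 0.73 in the lower and of 0.26 and 0.27 in the upper part.

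Among 29 genes of inflammation, Il10 and Il1b were the 2 called in both sexes, beside 1.85% of all genes called higher and 0.395% lower. They moved in opposite directions. Il10, a cytokine that damps macrophages, ran from 108.7 to 594 with a median of 281 in strong females and from 28.5 to 365 with a median of 94.7 in weak ones. In males it ran from 60.1 to 659 with a median of 206 and from 26.2 to 286 with a median of 104.7. The strong groups had the higher median, and the groups overlapped. Il10 differed by 1.25 ± 0.27 (adjusted p = 0.0016) in females and 1.31 ± 0.34 (adjusted p = 0.0186) in males. Il1b, the gene of the fever cytokine interleukin-1 beta, ran from 145 to 11000 with a median of 2610 in strong females and from 478 to 35640 with a median of 8950 in weak ones. Male Il1b signals ran from 91.3 to 9831 with a median of 423 and from 142 to 32410 with a median of 3228. The weak groups had the higher median with wide overlap, and Il1b differed by -1.89 ± 0.58 (adjusted p = 0.02) in females and -1.63 ± 0.42 (adjusted p = 0.0212) in males. Its male call was lost against the nearest cultures (-1.06, adjusted p = 0.0793) and without the longest run (-1.41, adjusted p = 0.204). The female difference without the longest run was -1.76 (adjusted p = 0.021). That run held the weak females with the highest Il1b signals, and the highest female signal outside it was 19092. Weak cultures above that signal had beta-actin ratios from 1.36 to 1.55 in females and from 1.22 to 1.54 in males. The longest male run is of strong cultures, so these weak males stayed in the fit without it. The part of the beta-actin ratio in the Il1b difference was not tested. The medians of the list were -0.08 and -0.10.

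Of 27 genes of M-CSF and growth factor signalling 5 were called higher and 5 lower in females, and 1 lower in males. Among all genes 11.4% were called higher and 8.59% lower in females, and 2.60% and 0.948% in males. Csf2rb, the signalling chain shared by the receptors for GM-CSF, interleukin-3 and interleukin-5, was the 1 called in both, at -0.32 ± 0.09 (adjusted p = 0.0083) and -0.40 ± 0.10 (adjusted p = 0.0135). Its male difference without the longest run was -0.36 (adjusted p = 0.116). The median signal of Csf2rb was 9122 in strong and 10580 in weak females and 6759 and 9678 in males. Of 29 macrophage markers 3 were called higher and 3 lower in females, as against 11.4% and 8.59% of all genes. In males limma called none, and 2 were lower at an unadjusted p under 0.05, as were 8.30% of all genes. Lyz2, the lysozyme of macrophages and the brightest marker, had -0.08 ± 0.08 and -0.06 ± 0.05. The lists of cholesterol efflux, lysosome, sterol synthesis and the respiratory chain had 4, 3, 1 and 3 genes called higher in females, of 15, 27, 20 and 28 measured, and none lower, as against the same 11.4% and 8.59%, with medians between -0.03 and 0.24 over both sexes. Limma called none of these 4 lists' genes in males, where 2 of cholesterol efflux and 2 of the respiratory chain were higher and 4 of the lysosome lower at an unadjusted p under 0.05. At that level 8.63% of all genes were higher and 8.30% lower in males. Of 22 genes of complement and scavenging 6 were called higher and 1 lower in females, as against the same 11.4% and 8.59%. In males limma called none, and 6 were lower at an unadjusted p under 0.05, as were 8.30% of all genes. Of 7 genes of class II presentation limma called none in either sex, with 0 in females and 1 in males, which was lower, at an unadjusted p under 0.05. Of all genes 19.75% were higher and 16.7% lower in females at that level, and 8.63% and 8.30% in males.

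Markers of other cell types differed between the groups in part, and their part in the results above was not tested. Of 12 neutrophil markers 4 passed the filter (S100a8, Camp, Prtn3 and Mmp8), and S100a9, Ngp, Ltf, Mpo, Elane, Cxcr2, Fcnb and Chil3 stayed below it. All 4 had differences below 0 in both sexes, and Prtn3 (-1.29 ± 0.37, adjusted p = 0.0141) and Mmp8 (-1.04 ± 0.36, adjusted p = 0.041) were called in females. Neither stayed called without the longest run, where they had -0.79 (adjusted p = 0.167) and -0.69 (adjusted p = 0.187). The summed neutrophil signal ran from 1138 to 16468 with a median of 5551 in strong and from 2952 to 44899 with a median of 8849 in weak females. In males the sum ran from 1602 to 13190.1 with a median of 3899.7 in strong and from 1439.6 to 41902 with a median of 17723 in weak cultures. The sum over 13 stromal markers, of which 11 passed, ran from 1719 to 36799 with a median of 7664 in strong and from 4083 to 141009 with a median of 17694 in weak females, and had medians of 23184 and 20021 in males. Pdgfrb, a receptor of stromal cells, was the 1 called (females, -1.58 ± 0.39, adjusted p = 0.00471). Of 8 erythroid and megakaryocyte markers 4 passed, and the platelet chemokine genes Pf4 in females (-0.39 ± 0.14, adjusted p = 0.046) and Ppbp in males (-1.73 ± 0.47, adjusted p = 0.0322) were called lower. Of 10 osteoclast markers 6 passed, and Acp5 (0.68 ± 0.16) and Atp6v0d2 (1.18 ± 0.30) were called higher in females, with -0.25 ± 0.20 and -0.61 ± 0.29 in males. Of the endothelial, dendritic, B cell, T and NK cell and progenitor lists at most 2 markers each passed the filter, and of the mast cell list none. Called among them were Cd83 (1.07 ± 0.35), Cd79b (1.10 ± 0.22) and Cd4 (0.92 ± 0.32) in females and Vwf (-0.84 ± 0.22) in males. Against the nearest cultures the female calls of Acp5 (0.36, adjusted p = 0.0798), Pf4 (-0.26, adjusted p = 0.155) and Cd4 (0.50, adjusted p = 0.0975) and the male call of Vwf (-0.06, adjusted p = 0.926) were lost, and with the longest run left out those of Cd4 (0.20, adjusted p = 0.657) in females and Vwf (-0.96, adjusted p = 0.108) and Ppbp (-1.88, adjusted p = 0.124) in males.

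The difference between strong and weak cultures itself differed between the sexes for 1 of 19821 probe sets (0.00505%), that of Pyurf, while 1906 had an unadjusted p under 0.05 in limma's interaction test. Pyurf, named for a reading frame upstream of that of Pigy, a gene of membrane anchor synthesis, ran from 379 to 738 with a median of 496 in strong females and from 290.4 to 553 with a median of 402 in weak ones. In males it ran from 320.4 to 615 with a median of 418 and from 322 to 658 with a median of 395. The strong females had the higher median, and the male groups overlapped nearly whole. It differed by 0.27 ± 0.07 (adjusted p = 0.00554) in females and -0.17 ± 0.06 (adjusted p = 0.09) in males, and the female call was lost in both further ways, at 0.12 (adjusted p = 0.182) and 0.19 (adjusted p = 0.0832).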

How the data were processed

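Total RNA of macrophage cultures, 1 array a mouse, was measured in 207 F2 mice. The deposited values are MAS5 signal intensities, which the authors scaled to the whole chip, on a linear scale for 45037 probe sets. No depth applies to arrays, and the number of arrays limits the precision. Probe sets with 1 gene symbol (34958) were named through GEO's platform annotation and updated to GRCm38.p6, 932 with several symbols and 9160 unlisted ones were not named, and the 8 probe sets of the score genes were left out. Probe sets above a signal of 100 in at least 61 arrays were tested with limma 3.58.1 (R 4.3.3) on log2(signal + 1), with a natural spline of the rank (3 degrees of freedom) as covariate, in each sex and, for the interaction, in both. Adjusted p-values are Benjamini-Hochberg. The brightest probe set stands for a gene. Array measures were compared by 2-sided permutation tests (100000 draws). Titles of 2 female arrays end in _2, which the labels do not explain. None of the females has the same number without it, each was taken as 1 culture, and neither is in the groups compared. The spread is that between arrays of single mice, genotypes included. The members and lists were chosen with earlier results of these data known.

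The text names up to 4 genes of each list with the largest difference among those called in both sexes, the brightest gene of a list with none, 10 genes higher and 10 lower outside the lists, members of the G1 and CDK inhibitor lists, genes called by the interaction and markers of other cell types. Genes named beside a small count, Ap1s2 and Arg1 were chosen after their values were seen. On simulated data for the 19821 probe sets, with 50 changed at each fold, the female comparison recovered 8 at 1.2-fold, 36 at 1.5-fold, 46 at 2-fold and 49 at 3-fold, and the male one 8, 35, 46 and 50. Among unchanged probe sets 3 were called in females and 11 in males. The simulated noise was independent between arrays, around a flat mean, with no drift along the title numbers and no runs. These counts therefore need not hold for the real cultures. Settings tried besides were other covariates, groupings, filters, pseudocounts and scalings, the Mann-Whitney test, and parts of the title numbers. A deposited table of genotypes, whose codes match no array label, was not used here. 1 gene that the naming rule selects is not reported here.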

Additional observations from a re-analysis of the deposited data

Results flagged for a closer look

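The difference between strongly and weakly dividing cultures was larger in females than in males for Pyurf, by 0.44 ± 0.09 on the log2 scale (standard error, limma's interaction test, adjusted p = 0.0422). It was the 1 probe set of 19821 for which the test of the difference between the sexes was called. With the score against the nearest cultures Pyurf differed by 0.12 (adjusted p = 0.18) in females and by 0.07 in males, and no probe set was called by the interaction.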

How the results depend on the processing

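In limma's main setting 3720 probe sets were called in females, 616 in males, 376 in both sexes in the same direction and 1 by the interaction of sex, and the counts below keep that order. A straight line of the rank as covariate gave 7546, 4199, 2972 and 11, no covariate 6502, 1146, 850 and 0, and residuals on a spline of the rank 8084, 1729, 1421 and 0. Groups set within 4 blocks of title numbers gave 6193, 2875, 1986 and 0, the slope on the residual over all arrays 9445, 4764 and 3985 in the first 3, and no filter on low values 2182, 390, 211 and 0. With the array median and the 3' to 5' ratios as covariates 1556 were called in females and 8 by the interaction, with arrays scaled to the same median 2442 and 0, and quantile normalization gave 2 for the interaction. The share of female calls that were higher was 49.7% in the main setting and 57.7% after scaling to the same median. The Mann-Whitney test with Bonferroni adjustment called 215, 0 and 0, with 7720 and 4839 at an unadjusted p under 0.05 in females and males. The lower part of the title numbers gave 690, 250, 154 and 0 and the upper part 0 for the interaction, and with males 55 to 78 kept in 4253 were called in males, 1490 in both and 0 by the interaction. The score against the nearest cultures and the fit without the longest run, both chosen after the data were seen, gave 1364 and 238 in males, 1062 and 138 in both and 0 for the interaction. Where limma's interaction called 0, from 954 to 3248 probe sets had an unadjusted p under 0.05. The other counts stayed within 1.5 times the main one, those of larger groups, a signal filter of 200 and a pseudocount of 16 among them.

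A score not adjusted for the title number compared cultures that by construction hardly share numbers (33 to 61 against 82 and above in females, 9 to 38 against 90 and above in males), and gave 339, 237, 10 and 452. Strong and weak cultures then differed by -59.8 and -79.9 in mean title number, -9.18 and -4.76 in array median, -0.0659 and -0.0445 in the Gapdh ratio and -1.96 and -0.997 percentage points of probe sets above 100 in females and males. In the beta-actin ratio they differed by -0.0917 in females and -0.101 in males. Within 4 blocks the female beta-actin difference was -0.0584 (adjusted p = 0.1325) and that of the share above 100 was -1.23 (adjusted p = 0.0137). Under the score not adjusted, 19 values of named genes turned their sign, none past the threshold. In females these were Ube2c (-2.65), Ccnb2 (-0.13), Tk1 (-0.36), Rrm1 (-0.13), Rplp2 (0.68), Il1b (0.53), Ccnd1 (-0.56), Myc (-0.38), Ccng2 (0.50), Mxd1 (1.17), Sesn1 (-1.32), Txnip (1.21), Shcbp1 (-0.88), Acpp (0.99), Fam162a (0.49), Kdm7a (0.61) and Pyurf (-0.20), and in males Skp2 (-0.037) and Fam162a (0.016). In the lower part of the title numbers Sesn1 in females (-0.069) and Fam162a in males (0.089) turned. Of 4116 values of named genes over all settings 3424 kept direction and stayed called or not called, 445 lost the call, 226 gained one and 21 turned. Values not called in the main setting are among the 4116. Why these values moved was not tested. No paired analysis was possible because a number in a female's title and the same number in a male's title stand for different animals.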
